A study of Oryza sativa with 26 samples.

Results

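The step from the uninucleate microspore to the bicellular pollen grain was read from the 3 arrays titled P2, anthers at the bicellular gametophyte stage, set against the 3 arrays titled P1, anthers at the uninucleate gametophyte stage. These are 6 of the 26 arrays of the series, and they were chosen by title alone. The series follows anthers of rice (Oryza sativa) through 8 stages, from before meiosis to mature pollen, with 3 or 4 Affymetrix Rice Genome Arrays a stage. Plants of both stages grew in paddy fields at Mishima without any treatment, and each title names its array as a biological replicate. The labels give no cultivar, genotype or plant age, so stage is the only labelled difference between P2 and P1. The tissue was the whole anther, so each array holds RNA of the anther wall and of the pollen together, and fewer cells of a type and less RNA per cell cannot be told apart.

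A microspore released from the tetrad enlarges around a vacuole and divides unequally, giving a large vegetative cell and a small generative cell inside it. Around it, the tapetum, the innermost layer of the anther wall, feeds the microspores, exports the lipid precursors and proteins of the pollen wall, and breaks down as pollen matures. The vegetative cell of cereals then fills with starch and stores transcripts for the tip growth of the pollen tube.

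Each value is the intensity of a probe set divided by the 75th percentile of its own array, so that 1 is that percentile on every array. Array values are given in the order 1, 2 and 3 of a stage. Differences are P2 minus P1 on the log2(intensity + 1) scale, which understates changes of weak probe sets, with the standard error (SE) of the limma fit. Calls required a p under 0.05 after Benjamini-Hochberg adjustment and a difference of 1 or more. No detection calls were given, and the medians of the 6 arrays lay between 0.263 and 0.312, so values at or under that level are read only as low. Levels of different genes were not set against each other.

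In P2, relative to P1, 7 of 9 tapetum markers fell, while genes of starch metabolism, gibberellin synthesis, actin dynamics and calcium signalling were among those that rose. Of 47799 probe sets tested, 1544 were higher in P2 (3.23%) and 1073 were lower (2.24%). The difference reached 3 log2 units for 245 of the higher and 101 of the lower probe sets. The P2 and P1 arrays did not overlap for 1502 of the 1544 higher and 1037 of the 1073 lower probe sets. With 1 probe set a gene, 1051 of 17338 genes tested were higher (6.06%) and 774 were lower (4.46%), and the median over all genes was -0.02. Counts of called members of a gene list, given below, are to be read against these shares of all genes tested. Higher calls made up 59.0% of called probe sets, but 34.8% where arrays were scaled on the spike-in controls, with 1079 higher and 2024 lower calls and a median of -0.10. No probe set called in the first scaling took the opposite call in the second.

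Arrays of a stage resembled each other more than arrays of the other stage. Pearson's r over the 57194 probe sets was 0.931 to 0.977 among P2 arrays and 0.950 to 0.987 among P1 arrays, and 0.776 to 0.897 between the stages. The closest pair across P2 and P1 was P2 array 1 with P1 array 3. P1 array 1 was closer to the M3 arrays (0.958 to 0.972) than to P1 array 3 (0.950). The 3 P2 arrays differed in the genes called higher, whose median intensity was 6.43, 9.40 and 10.7 in P2, against 0.956, 1.17 and 1.42 in P1. For the genes called lower, the median was 1.39, 0.961 and 1.06 in P2, against 6.89, 6.92 and 4.95 in P1. Without P1 array 3 and P2 array 1 together, a setting chosen after seeing the data, 1862 probe sets were higher and 1399 lower. Leaving out the closest arrays favours more calls, so these counts are no separate support.

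Marker genes were read on the same arrays and do not check the stage labels independently. They do not single out a stage, since C4 was also high in M3 (mean 145) and ADF1 in P3 (mean 132). Of the pollen markers sought, only ADF1 and SUT1 were matched by symbol. Both were higher in P2, with a summed intensity of 20.7, 56.8 and 61.5 in P2, against 0.777, 0.715 and 0.649 in P1. Most of that P2 sum was ADF1. SUT1 alone had 0.596, 4.77 and 3.81 in P2, against 0.506, 0.440 and 0.432 in P1, so P2 array 1 was hardly above P1. The SUT1 call was lost without P2 array 2 (difference 0.93). Summed over the 9 tapetum markers, the intensity was 241.8, 154.2 and 148.8 in P2, against 481.2, 592.3 and 436.4 in P1. RTS, which was not called, made up most of the P2 sums, and without it the sum of the other 8 was 59.0, 25.02 and 27.7 in P2, against 477.4, 494.5 and 280.8 in P1. None of the 6 markers of other floral organs was called by limma (2 had an unadjusted p under 0.05), and their sums were 3.44 to 4.62 in P2, against 5.69 to 6.35 in P1. Of the 2 green tissue markers, neither was called by limma (1 had an unadjusted p under 0.05), and the sums were 42.3, 27.4 and 23.4 in P2, against 77.9, 85.4 and 33.4 in P1. The part of green wall tissue in the results was not tested.

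**Figure D1:**
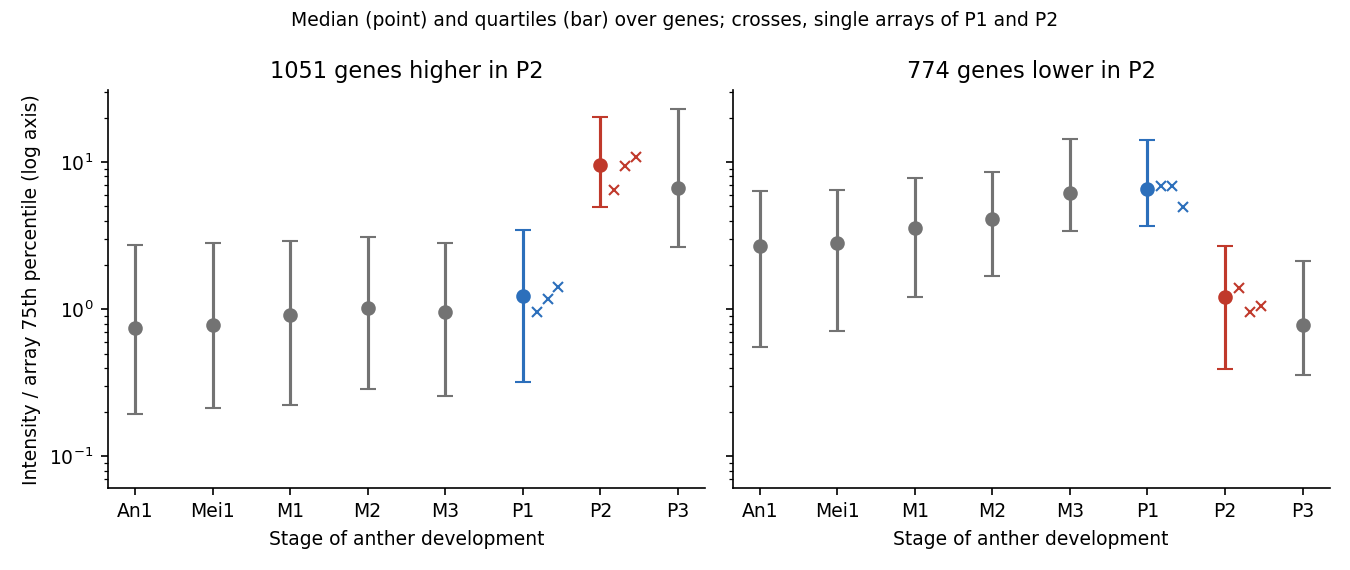
Intensity relative to the 75th percentile of the array (log axis) of the 1051 genes higher in P2 (left) and the 774 genes lower in P2 (right), by stage in developmental order. Points are medians over genes, bars are quartiles, and crosses are the single arrays of P2 (red) and P1 (blue). For the genes higher in P2, the median over genes was 9.60 in P2 and 6.66 in P3, with wide quartiles in P3, and genes lower in P2 had M3 levels close to those of P1 (median 6.20 in M3 and 6.54 in P1).

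The stages outside the comparison place these genes in the course of anther development. Among the 6 other stages, P3, the mature pollen stage, held the highest mean for 838 of the 1051 genes higher in P2 (79.7%), against 37.3% of all genes tested. Of the 774 genes lower in P2, 466 had their highest mean of those 6 stages in M3, the stage just before P1 (60.2%), against 12.8% of all genes tested. One P3 array stood apart, since P3 array 1 correlated at 0.849 and 0.859 with the other P3 arrays, against 0.982 between those. Without it, P3 held the highest mean for 809 of the 1051 genes (77.0%) and M3 for 462 of the 774 (59.7%). The plot of called genes by stage shows both patterns.

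Tapetum and pollen wall genes were among the largest falls. C4 (LOC9270168), a lipid transfer protein made in the tapetum, had intensities of 0.415, 0.281 and 0.254 in P2, against 135, 152 and 96.2 in P1. Every P2 array lay near the array median and every P1 array far above it, and the difference was -6.59 (SE 0.64, adjusted p = 4.57e-08). CYP703A3 (LOC4344594), a cytochrome P450 that hydroxylates fatty acids for the pollen wall, had 0.623, 0.282 and 0.403 in P2, against 54.7, 44.2 and 4.04 in P1. P1 array 3 was far below the other P1 arrays but still above all of P2, and the difference was -4.03 (SE 0.53, adjusted p = 4.38e-06). C6 (LOC4350790), a tapetal lipid transfer protein needed for the pollen wall, fell less, with 48.9, 19.1 and 21.8 in P2, against 135, 166 and 137 in P1, a difference of -2.36 (SE 0.39, adjusted p = 7.22e-05). Its mean was 0.420 in P3, so the fall continued after P2.

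RTS (LOC4326940), a gene needed in the tapetum for male fertility, ran the other way but was not called. It had 183, 129 and 121 in P2, against 3.87, 97.8 and 156 in P1. The groups overlapped, with P1 array 1 low and P1 array 3 within the range of P2, and the difference of 1.76 had an adjusted p of 0.071. Without P1 array 3 it was 2.70 and was called (adjusted p = 0.0025), as it was without P1 array 2 (2.37). Both of these fits keep P1 array 1 (3.87), the only P1 array far below P2. P1 arrays 2 and 3 had 97.8 and 156, near the P2 values, so the difference rests on P1 array 1. Its mean was 0.177 in M3 and 0.766 in P3, so high values were seen in P1 and P2 alone of these 4 stages.

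Among the 15 largest falls were 2 enzymes of very long chain fatty acid synthesis, a pathway not counted as a list. KCS20 (LOC4348632), a ketoacyl-CoA synthase, had 0.618, 0.379 and 0.325 in P2, against 65.2, 61.7 and 26.8 in P1. The groups were far apart on all arrays, with a difference of -5.08 (SE 0.27, adjusted p = 2.29e-12). HACD (LOC4324517), a hydroxyacyl-CoA dehydratase of the same elongation cycle, had 3.20, 1.70 and 1.61 in P2, against 30.6, 28.8 and 19.4 in P1, a difference of -3.12 (SE 0.17, adjusted p = 2.32e-12). This HACD probe set can bind related transcripts, and the other one tested was not called, at -0.23. Of 7 lipid transfer proteins tested, 4 fell (57.1%) and 1 rose (14.3%). C4 and C6 are among the falls, and with CYP703A3, AP25, CP1, EAT1 and TDR they are also the tapetum markers that fell. Counts of these lists are therefore not separate from the 7 of 9 tapetum markers. The faller LTPL1 lost its call without P1 array 1 (-0.96), P1 array 2 (-0.99) or P2 array 1 (-0.97). LTP110-A had 0.778, 0.885 and 0.560 in P2, against 41.3, 43.0 and 14.6 in P1 (difference -4.15, adjusted p = 1.27e-09). The riser, LTP (LOC4351318), had 5.42, 9.24 and 8.74 in P2, against 1.58, 2.80 and 1.5 in P1 (difference 1.57, adjusted p = 4.46e-06), on a probe set that can bind related transcripts.

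Of 11 proteases and death genes tested, 2 fell (18.2%) and none rose. AP25 (LOC4331874), an aspartic protease of the dying tapetum, had 0.154, 0.204 and 0.164 in P2, against 116, 104 and 27.2 in P1. All P2 arrays were below the array median, and the difference was -5.90 (SE 0.59, adjusted p = 7.26e-08). CP1, a cysteine protease needed for pollen formation, fell by 1.15 (adjusted p = 0.00279), and by 0.89, below the call, without P1 array 1. The other 9 of 11 proteases and death genes tested were not called, among them the vacuolar processing enzyme VPE1 with a difference of -0.99. VPE1 was called lower without P1 array 1, without P1 array 2 (-1.01 each) or without P2 array 1 (-1.13), and with spike-in scaling (-1.34).

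Regulators of the anther wall fell in part. Of 9 tested, 3 fell (33.3%) and 1 rose (11.1%), with a median of -0.74. EAT1 (LOC4336865), a bHLH factor that switches on the aspartic proteases of the tapetum, had 3.45, 2.10 and 1.93 in P2, against 15.6, 12.6 and 8.28 in P1 (difference -1.90, SE 0.36, adjusted p = 3.09e-04). TDR, the bHLH factor upstream of it, had 4.91, 2.51 and 2.60 in P2, against 15.8, 12.2 and 7.17 in P1 (difference -1.53, adjusted p = 7.87e-04). Neither gene overlapped between the groups, and in both P1 array 3 was the lowest of its stage. MSP1, a receptor kinase known for restricting how many sporogenous cells form, fell by 1.71 (adjusted p = 3.94e-09). TDL1A, its peptide ligand, had 3.29, 2.09 and 1.75 in P2, against 0.331, 0.476 and 1.10 in P1. That difference of 1.05 (adjusted p = 1.69e-04) fell to 0.92, 0.99 and 0.86 without P1 array 1, P1 array 2 and P2 array 1. PTC1, GAMYB and BHLH142 were not called, with differences of -0.84, -0.68 and -0.74. Without P1 array 3, PTC1 was called at -1.18.

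**Figure D2:**
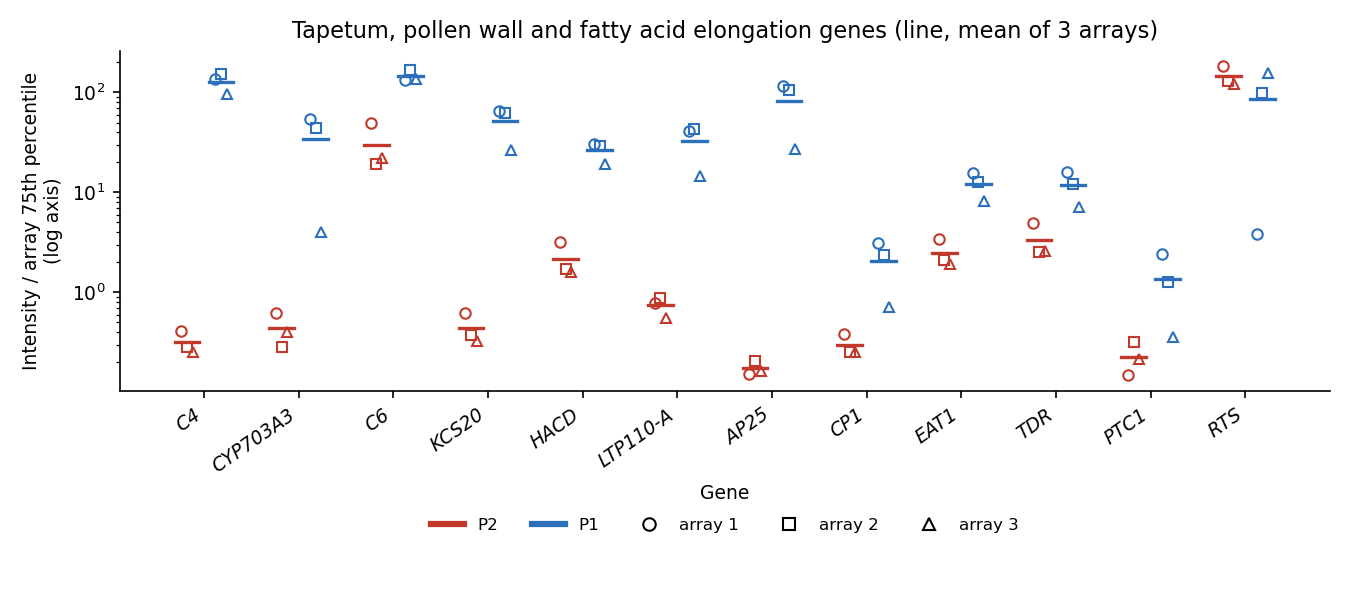
Intensity relative to the 75th percentile of the array (log axis) of 12 tapetum, pollen wall and fatty acid elongation genes on each array of P2 (red, left of each pair) and P1 (blue, right). Symbols mark arrays 1, 2 and 3 and lines the means of 3 arrays. PTC1 and RTS were not called. The P1 values of RTS span 3.87 to 156, and P1 array 3 is the lowest of its stage for CYP703A3, AP25, KCS20 and LTP110-A.

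Starch genes were among the rises. Of 19 tested, 7 rose (36.8%) and 1 fell (5.26%), with a median of 0.29. Wx (LOC4340018), the granule-bound synthase that makes amylose, had 14.2, 37.3 and 41.1 in P2, against 0.141, 0.106 and 0.214 in P1. All P1 arrays were below the array median, and the difference was 4.65 (SE 0.28, adjusted p = 1.75e-11), on a probe set that can bind related transcripts. Of 5 other Wx probe sets tested, 3 were higher, by 2.56 to 3.50, and 2 showed no call, at -0.01 and 0.13. AGPS2, a small subunit of ADP-glucose pyrophosphorylase, which makes the glucose donor for starch, had 10.7, 13.5 and 14.1 in P2, against 4.27, 3.75 and 2.02 in P1 (difference 1.70, adjusted p = 4.26e-05). SS1, a soluble starch synthase, had 10.2, 9.998 and 10.3 in P2, against 2.74, 4.28 and 4.80 in P1 (difference 1.20, adjusted p = 0.00165). With spike-in scaling SS1 was not called (0.85).

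The remaining starch genes that rose belong to maltose and glucan turnover. DPE2 (LOC4344192), the cytosolic disproportionating enzyme that uses maltose, had 33, 84.2 and 91.4 in P2, against 5.06, 6.38 and 4.67 in P1 (difference 3.35, SE 0.44, adjusted p = 4.06e-06). MEX1, the maltose exporter of plastids, had 5.85, 28.8 and 23.4 in P2, against 0.976, 0.865 and 0.977 in P1 (difference 3.14, SE 0.33, adjusted p = 1.60e-07). GWD3, a glucan dikinase that phosphorylates starch, had 4.09, 13.9 and 13 in P2, against 2.07, 1.94 and 1.91 in P1 (difference 1.78, adjusted p = 6.45e-05). In these genes P2 array 1 was the lowest of its stage and still above all P1 arrays. DPE1, the plastid disproportionating enzyme, rose by 1.42 (adjusted p = 0.019) and was not called without P1 array 3 (1.36), P2 array 2 (1.24) or P2 array 3 (1.04). None of the 4 alpha-amylases tested (AMY1.2 to AMY1.5) was called, nor were the amylopectin synthases SSII-1, SSII-2 and SSII-3. The member that fell, AGP1, has no product name in the tables, was matched by symbol alone, and lost its call without P1 array 3 (-1.22), P2 array 2 (-1.28) or P2 array 3 (-1.25).

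Genes of sucrose and hexose supply and use moved in both directions, 9 of 51 rising (17.6%) and 6 falling (11.8%). CIN3 (LOC4335789), a cell wall invertase that splits sucrose outside the cell, had 38.4, 16 and 12.6 in P2, against 0.315, 0.340 and 0.358 in P1 (difference 3.96, SE 0.21, adjusted p = 1.62e-12). P2 array 1 was the highest of its stage here, whereas it was the lowest for DPE2, MEX1 and GWD3. HXK5 (LOC4339361), a hexokinase, had 25.8, 43.1 and 48.6 in P2, against 5.32, 5.86 and 5.45 in P1 (difference 2.57, adjusted p = 4.24e-09). HXK6 (LOC4338010), another hexokinase, had 1.38, 1.34 and 1.66 in P2, against 45.6, 25.6 and 5.0 in P1 (difference -2.99, SE 0.57, adjusted p = 3.35e-04). The groups of neither hexokinase overlapped, which the rule for the largest falls required of HXK6. The P1 arrays of HXK6 were widely spread.

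Sugar carriers were also split. MST5 (LOC4344808), a monosaccharide transporter of pollen, had 0.441, 13 and 9.74 in P2, against 0.143, 0.136 and 0.0954 in P1 (difference 2.42, SE 0.47, adjusted p = 4.54e-04). P2 array 1 was hardly above P1, and with the 6 arrays alone MST5 was not called (limma adjusted p = 0.066). The sucrose exporter SWEET11 had 7.86, 23.6 and 13.3 in P2, against 56.5, 48.1 and 25.7 in P1 (difference -1.53, adjusted p = 0.00138). SUT5, a sucrose transporter, fell by 1.63 (adjusted p = 3.44e-04), and TPP1, a trehalose-phosphate phosphatase, by 1.29 (adjusted p = 0.015). Without P1 array 1, 3 members of the sucrose and hexose list were lower in place of 6, because TPP1 (-1.02), CIN2 (-0.63) and RSs2 (-0.83) lost their calls.

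Gibberellin synthesis genes rose at 4 steps, while breakdown and signalling genes were not called. Of 16 genes tested in the limma fit, 4 rose (25%), none fell and 11 had an unadjusted p under 0.05, with a median of -0.01. CPS1 (LOC4329013), which makes ent-copalyl diphosphate at the start of the pathway, had 13.9, 24.3 and 20.9 in P2, against 0.0766, 0.112 and 0.629 in P1 (difference 4.02, SE 0.17, adjusted p = 3.00e-14). KO2, the ent-kaurene oxidase, had 9.08, 11.4 and 9.46 in P2, against 1.36, 1.49 and 2.25 in P1 (difference 2.03, adjusted p = 5.34e-08), on a probe set that can bind related transcripts. KAO (LOC4339885), the ent-kaurenoic acid oxidase of the next step, had 37.1, 59.0 and 62.2 in P2, against 0.257, 0.322 and 1.16 in P1. That was a difference of 5.10 (SE 0.17, adjusted p = 6.22e-16). No groups overlapped among these 3 genes, which the rule for the largest rises required of CPS1 and KAO.

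GA20OX3 (LOC4342505), the 20-oxidase that acts after KAO, had 48.8, 44.2 and 35.8 in P2, against 5.28, 7.25 and 19.4 in P1 (difference 2.10, SE 0.29, adjusted p = 7.12e-06). The step between CPS1 and KO2, ent-kaurene synthase (ks1), had a difference of 0.99, just under the call, and was called at 1.09 without P1 array 3 and at 1.02 without P2 array 1. In P1 the highest of the 3 arrays was array 3 for CPS1, KO2, KAO and GA20OX3 alike. The receptor gid1 and the repressors SLR1 and SPY had differences of -0.69, -0.41 and -0.62, and none was called. The inactivating enzyme EUI1 stood at -0.12 and the DELLA-like SLRL1 at -0.12. With spike-in scaling, 4 members of the list were higher and 2 lower.

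**Figure D3:**
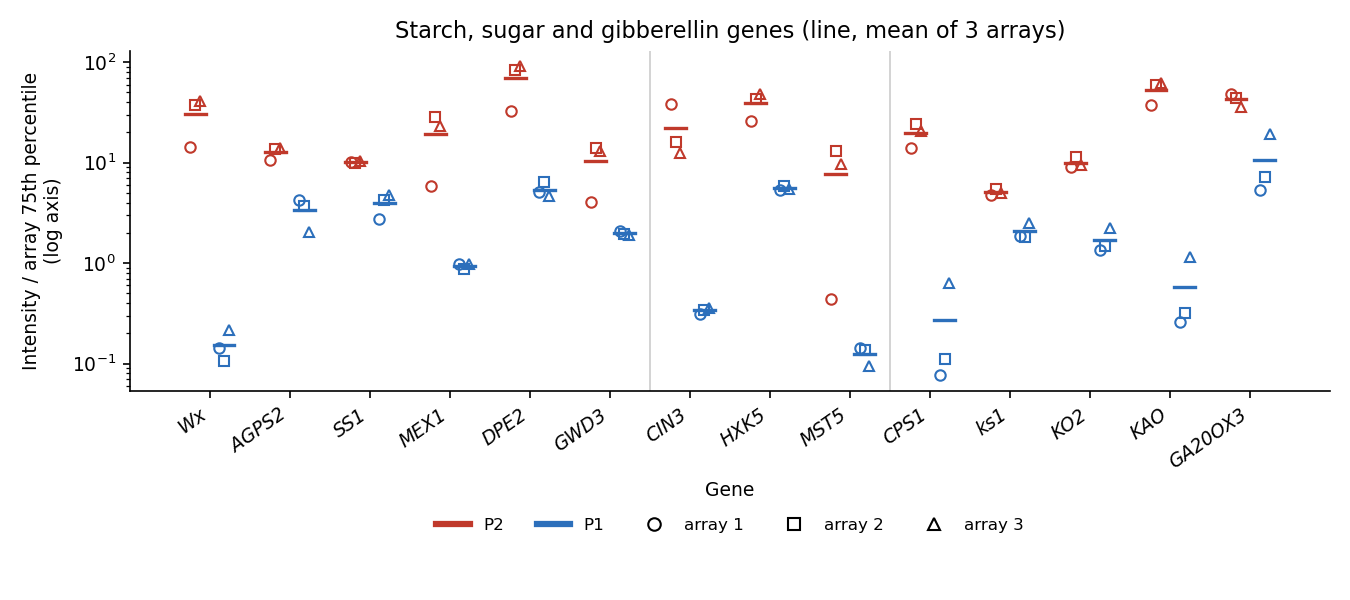
Intensity relative to the 75th percentile of the array (log axis) of starch genes (left block), sugar genes (middle) and gibberellin synthesis genes (right, in pathway order) on each array of P2 (red, left of each pair) and P1 (blue, right). Symbols mark arrays 1, 2 and 3 and lines the means of 3 arrays. P2 array 1 is the lowest of its stage for Wx, MEX1, DPE2, GWD3 and MST5, at 0.441 for MST5, and ks1 was not called.

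Expansins, which loosen cell walls during growth, were split between rises and falls within the same family. Of 10 beta-expansins tested, 3 rose (30%) and 2 fell (20%), and of 11 alpha-expansins, 2 rose (18.2%) and 3 fell (27.3%). EXPB9 (LOC4349301), of the beta-expansin group that includes the group-1 allergens of grass pollen, showed the largest rise of a gene with a symbol. It had 71.4, 138 and 163 in P2, against 0.189, 0.274 and 0.267 in P1 (difference 6.57, SE 0.24, adjusted p = 2.65e-15). EXPB10 (LOC4331325) had 10.04, 92.6 and 94.5 in P2, against 0.126, 0.138 and 0.137 in P1 (difference 5.35, SE 0.47, adjusted p = 8.85e-09), so P2 array 1 was again well below the other P2 arrays.

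EXPB2 was even across P2, with 4.75, 4.03 and 4.96, against 0.149, 0.254 and 0.324 in P1 (difference 2.17, adjusted p = 2.31e-15), and its mean in P3 was 31.4. In the opposite direction, EXPB7 had 0.128, 0.228 and 0.213 in P2, against 4.35, 6.50 and 0.927 in P1 (difference -1.84, adjusted p = 7.74e-05). EXP7 (LOC4334606), an alpha-expansin, had 16.3, 6.62 and 7.70 in P2, against 39.4, 71.7 and 49.6 in P1 (difference -2.34, adjusted p = 9.06e-08). Neither of the other EXP7 probe sets tested was called, at 0.00 and -0.01. EXP32 and EXP26 rose by 2.70 and 2.42 (adjusted p = 0.00322 and 0.00547), on P2 arrays 2 and 3 mainly. Their P2 array 1 values were 0.561 and 0.509, and EXP26 was not called without P2 array 3 (1.77, adjusted p = 0.059). With the 6 arrays alone neither was called by limma (adjusted p = 0.073 for EXP32 and 0.075 for EXP26).

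Some calls among the weaker expansins were lost when 1 array was left out. EXPB4 fell by 1.02 and was not called without P1 array 3 (-0.70) or P2 array 3 (-0.87). EXP5 fell by 1.24 and lost its call without P1 array 1, P1 array 2, P2 array 2 or P2 array 3 (-1.14, -0.97, -1.05 and -1.12). Among cellulose synthase and related genes, 5 of 28 fell (17.9%) and 1 rose (3.57%). CSLA9, a mannan synthase family member, had 1.63, 0.572 and 0.549 in P2, against 5.32, 5.56 and 4.14 in P1 (difference -1.69, adjusted p = 3.05e-06). CESA6, a cellulose synthase subunit, fell by 1.5 (adjusted p = 2.51e-05) and CESA5 by 1.25 (adjusted p = 1.19e-07). Without P2 array 2, or without P2 array 3, 3 members of this list were lower.

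Some genes of actin dynamics rose, while most tubulins fell or were not called. Of 28 genes of actin and its binding proteins, 6 rose (21.4%) and 1 fell (3.57%). ADF1 (LOC4330233), an actin depolymerizing factor, had 20.1, 52.0 and 57.7 in P2, against 0.271, 0.276 and 0.218 in P1 (difference 5.01, SE 0.37, adjusted p = 5.46e-10). ADF-9 had 4.70, 28.7 and 39.0 in P2, against 0.0841, 0.101 and 0.112 in P1 (difference 4.10, SE 0.48, adjusted p = 7.17e-07). ADF-6 was steadier over P2, with 15, 22.7 and 23.1, against 0.278, 0.384 and 1.04 in P1 (difference 3.77, SE 0.35, adjusted p = 2.42e-08). In P1, ADF1 was near the array medians, ADF-9 was below them on all arrays, and ADF-6 was near them on P1 array 1 and above them on P1 arrays 2 and 3.

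VLN4, a villin that bundles actin filaments, had 6.44, 27.3 and 27.4 in P2, against 0.244, 0.283 and 0.322 in P1 (difference 3.82, SE 0.46, adjusted p = 1.04e-06). The median over the whole actin list was -0.29, below that of all genes, with 19 of 28 members below 0. Spike-in scaling gave 6 higher and 5 lower members, and leaving out P2 array 1 gave 7 and 2. Of 11 tubulins, TUB8 alone rose (9.09%) and 3 fell (27.3%). TUB8 (LOC4333632), a beta-tubulin, had 12.5, 19.3 and 28.9 in P2, against 3.18, 6.84 and 5.04 in P1 (difference 1.79, adjusted p = 7.49e-04). TUB1 had 5.65, 3.61 and 4.07 in P2, against 21.3, 23.9 and 15.8 in P1 (difference -1.97, adjusted p = 2.17e-06), and TUB4 fell by 1.81 (adjusted p = 1.98e-06), with its other probe set at -0.63 and not called. TUB2 fell by 1.08 and lost its call without P1 array 1 (-0.91) or P1 array 2 (-0.90).

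Of 16 ROP and other small GTPases, a group that includes switches of tip growth, 1 rose (6.25%) and 3 fell (18.8%). Of all genes tested, 6.06% rose and 4.46% fell. RAC6 had 37.4, 54.6 and 56.8 in P2, against 16.4, 15.5 and 15.8 in P1 (difference 1.56, adjusted p = 2.39e-06). Rac1 had 2.64, 2.02 and 1.96 in P2, against 6.50, 8.46 and 6.74 in P1 (difference -1.36, adjusted p = 1.84e-06), and RAC7 fell by 1.24 (adjusted p = 3.37e-08). RAC4 fell by 1.10, with its other probe set at -0.69 and not called, and was not called without P1 array 3 (-0.89), P2 array 2 (-0.90) or P2 array 3 (-0.98). The other 12 of 16 small GTPases tested were not called. Of 34 kinesins, the motors of microtubules, 4 fell (11.8%) and the others were not called by limma, although 11 reached an unadjusted p under 0.05. The falls were led by KIN14I, with 0.604, 0.668 and 0.561 in P2, against 3.47, 3.78 and 3.25 in P1 (difference -1.48, adjusted p = 5.36e-11).

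Calcium genes rose in part, and their rises were unevenly shared among the P2 arrays. Of 20 calcium-dependent protein kinases, 4 rose (20%) and 3 fell (15%). With the 6 arrays alone none of the 20 was higher and 3 were lower, CPK29 having a limma adjusted p of 0.056. CPK29 (LOC4351829) had 1.70, 7.18 and 40.3 in P2, against 0.145, 0.292 and 0.655 in P1 (difference 2.85, SE 0.67, adjusted p = 0.0027). CPK22 had 0.670, 6.29 and 33.1 in P2, against 0.118, 0.169 and 0.261 in P1 (difference 2.66, SE 0.77, adjusted p = 0.0144). CPK2 had 0.141, 3.61 and 19.9 in P2, against 0.107, 0.132 and 0.129 in P1 (difference 2.09, SE 0.71, adjusted p = 0.0372). In each of these kinases P2 array 3 was well above P2 array 2 and P2 array 1 was the lowest of its stage, close to the P1 arrays for CPK2 and above all of them for CPK29 and CPK22. Without P2 array 3 the differences for CPK22 and CPK2 were 1.56 and 1.03, and neither was called.

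CPK2 also lost its call without P2 array 2 (2.12), P1 array 1 (2.08), P1 array 2 (2.10) or P1 array 3 (2.10). The fourth riser, CPK6, rose by 1.14 and was called only with all arrays or without P2 array 1 among the settings that leave out 1 array, its other values running from 0.84 to 1.15. The kinases that fell were CPK13 (-1.23), CPK3 (-1.05) and CPK23 (-1.01), and the other probe set of CPK13 was not called, at -0.51. CPK3 lost its call without P1 array 1 (-0.98) or P2 array 2 (-0.90), and CPK23 without P1 array 1 (-0.95), P2 array 2 (-0.93) or P2 array 3 (-0.95). Among 31 CBL proteins and their CIPK kinases, 4 rose (12.9%) and none fell by limma, 14 reaching an unadjusted p under 0.05. With the 6 arrays alone 1 of the 31 was higher. CIPK5 (LOC4327093) had 0.577, 6.08 and 50.6 in P2, against 0.260, 0.332 and 0.304 in P1 (difference 2.68, SE 0.75, adjusted p = 0.0111), and without P2 array 3 it stood at 1.36 and was not called. CIPK30 and CIPK20 rose by 1.70 and 1.25 and were called with P2 array 1 left out. With any of the other 5 arrays left out neither was called, at 0.92 to 1.75 for CIPK30 and 0.86 to 1.27 for CIPK20.

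Calmodulins and calmodulin-like proteins, the small calcium sensors, were steadier. Of 26 tested, 7 rose (26.9%) and 1 fell (3.85%), with a median of 0.21. CML1 (LOC4327351) had 7.06, 14.9 and 22.5 in P2, against 0.330, 0.259 and 0.290 in P1 (difference 3.48, SE 0.26, adjusted p = 5.58e-10). CML32 had 6.26, 17.3 and 21.5 in P2, against 0.402, 0.491 and 0.527 in P1 (difference 3.29, SE 0.44, adjusted p = 5.29e-06). CML10 had 28.9, 36.5 and 29.8 in P2, against 9.09, 11.1 and 5.31 in P1 (difference 1.83, adjusted p = 7.98e-04). Without P2 array 2, or without P2 array 3, 4 members were higher, since CML15 (1.83 and 1.73), CML7 (1.00, just under the threshold before rounding, and 0.89) and CAM1-3 (0.87 and 0.98) then lost their calls. ACA1, a calcium pump, had 4.63, 17.8 and 18.2 in P2, against 0.788, 0.893 and 1.27 in P1 (difference 2.68, adjusted p = 1.50e-05). CAX3, a vacuolar calcium exchanger, had 4.55, 2.51 and 2.92 in P2, against 15.5, 15.3 and 13.8 in P1 (difference -1.90, adjusted p = 6.48e-08).

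**Figure D4:**
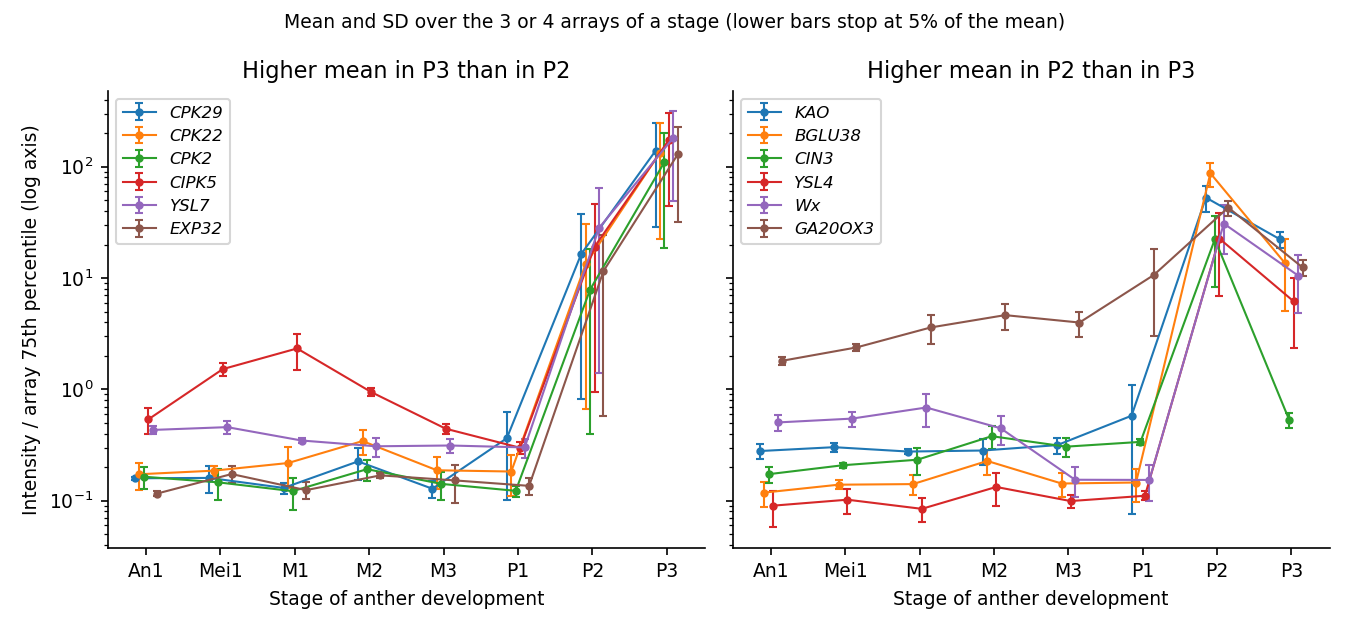
Intensity relative to the 75th percentile of the array (log axis) over the 8 stages in developmental order for 12 genes called higher in P2 than in P1. Points are stage means and bars SD over the 3 or 4 arrays of a stage. Genes at left had higher means in P3 than in P2 (CPK29 16.4 in P2 and 139 in P3), and genes at right higher means in P2 than in P3 (CIN3 22.3 in P2 and 0.531 in P3).

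Water channels moved in both directions. Of 24 aquaporins tested, 5 rose (20.8%) and 4 fell (16.7%). TIP1-2 (LOC4324303), a channel of the vacuole membrane, had 34.2, 49.6 and 44.2 in P2, against 0.269, 0.344 and 2.61 in P1 (difference 4.56, SE 0.24, adjusted p = 1.65e-12). PIP2-2, a channel of the plasma membrane, had 42.3, 49.4 and 40.2 in P2, against 4.06, 5.82 and 8.45 in P1 (difference 2.70, adjusted p = 1.69e-09), on a probe set that can bind related transcripts. Its other probe set was not called, at 0.78. The groups of both channels were well apart.

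NIP4-1 (LOC4326119) had 0.217, 0.389 and 0.313 in P2, against 103, 98.5 and 51.6 in P1 (difference -5.97, SE 0.64, adjusted p = 2.15e-07). PIP2-6 had 1.04, 2.19 and 1.04 in P2, against 28.7, 16.9 and 14.1 in P1 (difference -3.08, SE 0.22, adjusted p = 2.89e-10). NIP4-1 was also high in M3, at a mean of 84.6, and low in P3, at 0.303. PIP2-7 rose by 1.80 with overlapping groups, and lost its call without P1 array 1 (0.68) or P2 array 1 (1.52). Without probe sets that can bind related transcripts, 1 member of the aquaporin list was higher and 4 lower.

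Calls among potassium, metal and phosphate carriers were mainly higher in P2. Of 25 potassium transporters and channels, 5 rose (20%) and 1 fell (4%). HAK26 (LOC4345999) had 16.2, 21.1 and 23.7 in P2, against 0.726, 3.03 and 6.46 in P1 (difference 2.5, SE 0.29, adjusted p = 5.59e-07), and its mean was 1.52 in P3. HAK2 and HAK10 rose by 1.74 and 1.48 (adjusted p = 2.99e-08 and 6.35e-05). Of 46 metal transporters, 6 rose and none fell by limma, 19 reaching an unadjusted p under 0.05. The median of this list was -0.007, with 25 of 46 members below 0, and spike-in scaling gave 4 higher and 2 lower. The riser COPT1 lost its call without P1 array 1 (1.003), P1 array 2 (1.04), P1 array 3 (1.03), P2 array 2 (0.97) or P2 array 3 (1.02). The riser Nramp1 lost its call without P1 array 1 (0.97). YSL4 (LOC4338224), of the yellow stripe-like family that carries metals bound to nicotianamine, had 4.54, 30.9 and 32.5 in P2, against 0.117, 0.117 and 0.0988 in P1 (difference 4.03, SE 0.41, adjusted p = 1.13e-07).

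YSL7 of the same family had 0.591, 15 and 68.9 in P2, against 0.334, 0.337 and 0.231 in P1 (difference 3.22, SE 0.78, adjusted p = 0.00351), the uneven P2 pattern of the calcium-dependent kinases. With the 6 arrays alone YSL7 was not called (limma adjusted p = 0.097). YSL18 rose by 2.37 (adjusted p = 4.32e-07). YSL10 rose by 1.28, and by 0.95, below the call, without P2 array 2. PHT1-1, a phosphate transporter, had 11.8, 7.99 and 5.63 in P2, against 0.385, 0.402 and 0.402 in P1 (difference 2.71, SE 0.26, adjusted p = 2.77e-08). PHT1-7 had 12.1, 12.2 and 9.40 in P2, against 0.378, 1.61 and 8.15 in P1 (difference 1.92, adjusted p = 2.21e-04), so P1 array 3 lay just below P2. Each gene had 1 other probe set tested, not called, at -0.01 for PHT1-1 and 0.07 for PHT1-7. These 2 (10.5%) were the only called genes of 19 phosphate transport and SPX genes in the fit with all arrays.

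Of 51 auxin genes tested, 9 rose (17.6%), 6 fell (11.8%) and 36 were not called, against 6.06% rising and 4.46% falling among all genes tested. By symbol, 2 of 9 GH3 enzymes, which join auxin to amino acids, and 7 of 25 Aux/IAA repressors rose and none fell in the fit with all arrays. Of 16 ARF transcription factors, 6 fell and none rose. No difference between the families was tested. The repressor IAA21 was called lower without P1 array 1 (-1.06), P1 array 2 (-1.01) or P2 array 1 (-1.32). GH3.2 (LOC4326893) had 23.5, 32.1 and 34.5 in P2, against 0.247, 0.346 and 1.66 in P1 (difference 4.22, SE 0.35, adjusted p = 3.58e-09). GH3-8 had 34.7, 72.6 and 70.7 in P2, against 4.34, 4.49 and 3.52 in P1 (difference 3.49, SE 0.31, adjusted p = 8.75e-09). IAA1 had 16.9, 19.9 and 18.7 in P2, against 2.74, 2.94 and 6.10 in P1 (difference 2.05, adjusted p = 2.37e-09), and its other probe set was not called, at 0.11. The falls among ARF genes ran from -1.42 for ARF7 to -1.10 for ARF24, chosen after their values were seen as the ends of that range. With spike-in scaling, 6 members of the auxin list were higher and 13 lower.

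Of 33 mitotic cell cycle genes, 2 rose and 2 fell, which is 6.06% in each direction and close to the shares of all genes tested (6.06% higher and 4.46% lower), and 18 had an unadjusted p under 0.05 by limma. With the pseudocount at the 20th percentile, 5 were higher and 6 lower. CycB2;1, a B-type cyclin, had 1.27, 3.94 and 4.14 in P2, against 0.723, 0.563 and 0.689 in P1 (difference 1.22, adjusted p = 6.89e-05). KRP5, an inhibitor of cyclin-dependent kinases, had 1.43, 0.699 and 0.615 in P2, against 2.42, 3.30 and 3.42 in P1 (difference -1.09, adjusted p = 1.17e-05), and -0.98, below the call, without P2 array 3. NEK2 and NEK6, of a kinase family of the cell cycle, moved apart, by 1.28 and -1.27. Of 30 DNA replication genes, RPA14 alone rose (3.33%, under the share of all genes) and none fell. RPA14, a subunit of the single-strand binding protein, had 16.9, 17.4 and 19.0 in P2, against 7.78, 7.35 and 8.52 in P1 (difference 1.08, adjusted p = 7.38e-05). It was not called with quantile normalization (0.85) or spike-in scaling (0.69).

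None of 6 core histone genes was called by limma, 3 had an unadjusted p under 0.05, and 4 had differences below 0. With spike-in scaling 2 were lower, and H2B.10 was lower without P1 array 1 (-1.07) or P2 array 1 (-1.002). Of 28 cytosolic ribosomal protein genes, RPS10-1 alone was called (3.57%, against 6.06% of all genes rising), rising by 1.21 (adjusted p = 4.97e-04). In all, 25 of 28 had differences above 0, with a median of 0.29. The sign of that median turned with the scaling, to -0.12 with spike-in scaling and -0.04 with quantile normalization. Among 13 translation factors, eIF-4A-3 alone was called (7.69%), with 25.8, 31.9 and 29.3 in P2, against 12.2, 11.0 and 11.1 in P1 (difference 1.27, adjusted p = 1.85e-07). With spike-in scaling neither RPS10-1 (0.87) nor eIF-4A-3 (0.87) was called.

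**Figure D5:**
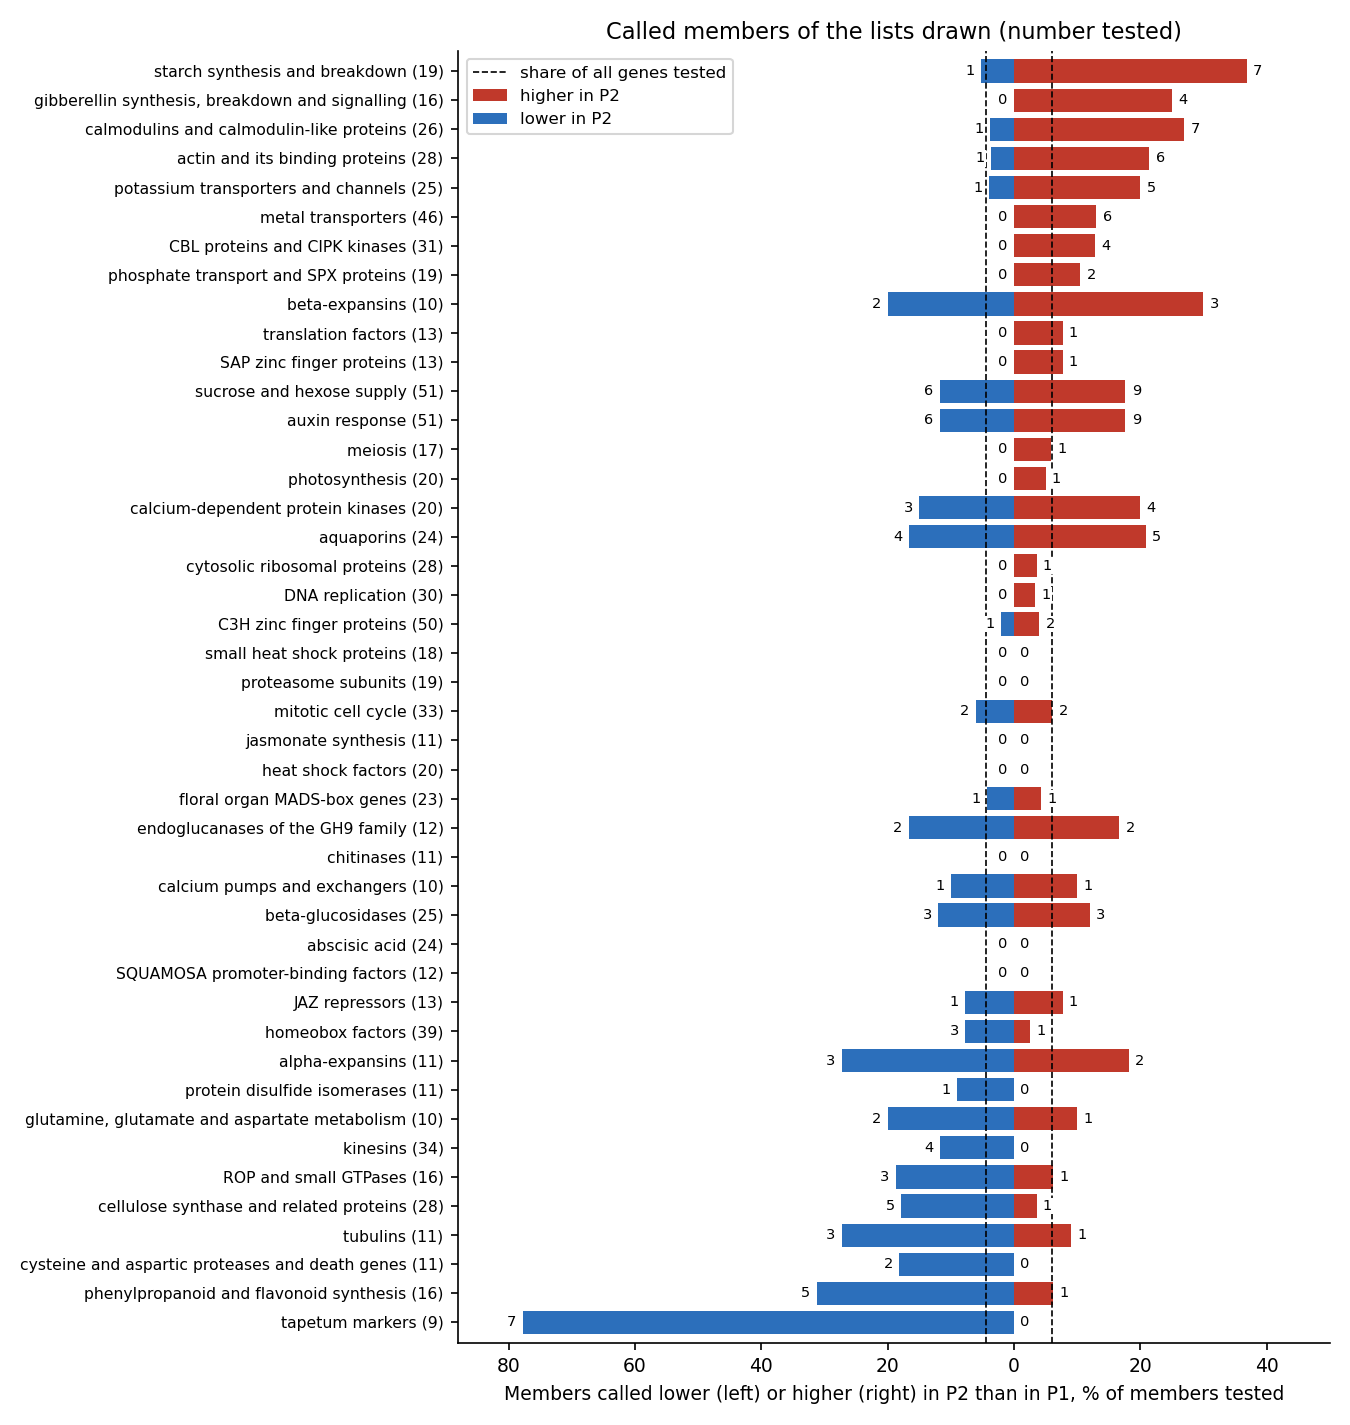
Share of tested members called higher (red, right) or lower (blue, left) in P2 than in P1, for the tapetum markers and for each gene list with 10 or more members tested that is not a marker list, with the number called at the end of each bar and the number tested in parentheses. Dashed lines mark the shares of all genes tested, 6.06% higher and 4.46% lower. Of the lists drawn, starch genes have the longest bar to the right (7 of 19) and tapetum markers the longest to the left (7 of 9).

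Other large changes concerned genes outside these pathways. BGLU38 (LOC4352082), a glycoside hydrolase, had 63.4, 105 and 93.6 in P2, against 0.110, 0.128 and 0.199 in P1 (difference 6.24, SE 0.23, adjusted p = 2.97e-15), and its mean was 13.7 in P3. AldC-alpha rose by 3.81 with very uneven P2 arrays, at 1.47, 30.0 and 53.2 in P2, against 0.124, 0.152 and 0.159 in P1 (SE 0.78, adjusted p = 7.37e-04). UGE-3 (LOC4347638), a UDP-glucose epimerase, had 4.70, 0.957 and 1.39 in P2, against 27.8, 44.5 and 62.8 in P1 (difference -3.87, SE 0.46, adjusted p = 1.05e-06). For this gene P1 array 3 was the highest of its stage, and the mean was 7.48 in M3.

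GLU13, an endoglucanase, had 2.98, 1.85 and 1.26 in P2, against 24.9, 33.8 and 33.5 in P1 (difference -3.42, SE 0.21, adjusted p = 1.67e-11). BURP3 had 9.99, 1.20 and 2.01 in P2, against 16.9, 37.4 and 77.0 in P1 (difference -3.17, SE 0.45, adjusted p = 1.06e-05). AS2, of the lateral organ boundaries family, had 0.467, 0.298 and 0.303 in P2, against 21.9, 13 and 3.27 in P1 (difference -3.04, SE 0.52, adjusted p = 1.07e-04). The AS2 probe set can bind related transcripts. Osr40c1, a lectin-like gene first known from the response to abscisic acid, had 3.32, 2.49 and 2.25 in P2, against 32.2, 31.1 and 20.9 in P1 (difference -2.96, SE 0.21, adjusted p = 1.83e-10). BGLU1 (Os3bglu7), a beta-glucosidase, had 1.67, 1.61 and 1.52 in P2, against 35.7, 29.2 and 9.0 in P1 (difference -3.10, SE 0.29, adjusted p = 2.03e-08). In none of these 5 did the groups overlap, which the rule for the largest falls required.

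Of 17905 genes, only 2456 had a symbol. The 3 largest rises and 3 largest falls with no overlap among the others are given by identifier. LOC4347012 had 151, 246 and 230 in P2, against 0.213, 0.167 and 0.292 in P1, the largest rise of any gene among those the rule picked (difference 7.39, SE 0.20, adjusted p = 1.03e-17). LOC4335467 and LOC4341714 followed, at 6.74 and 6.26. LOC4338574 had 0.221, 0.127 and 0.225 in P2, against 97.3, 126 and 99.9 in P1 (difference -6.50, SE 0.63, adjusted p = 4.43e-08). LOC4343894 and LOC4336091 fell by 6.48 and 6.35, and the other probe set of LOC4343894 was not called, at 0.01. Of the genes named by the rule, 22 had other probe sets tested. For 4 of these genes all their other probe sets had the same call, for 3 some did, for 15 none did, and in no case was the call opposite. Every P1 array of the 3 risers, and every P2 array of the faller LOC4338574, was at or below the range of the array medians.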

How the data were processed

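Rice anthers of 8 stages were hybridized to 26 Affymetrix arrays as biotinylated cRNA, per the labels' protocols, and the 6 arrays of P2 and P1 are compared here. The deposited table holds linear intensity. Its values show a scaling by the authors to the 75th percentile of the array, which is 1 on all 26 arrays. The submitters' processing notes name GCOS 1.3 without its role. Background correction, probe summary, detection calls and genome build are not given in the sources used here, so no coordinates or sequences are printed. Precision is limited by the number of arrays.

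From these values, 187 control probe sets were left out and log2(intensity + 1) was taken. The test covered 47799 of 57194 probe sets (83.6%), those whose mean passed the 40th percentile of the pooled log2 values in some stage. limma 3.58.1 in R 4.3.3 fitted 8 stage means over the 26 arrays with an intensity trend and tested P2 minus P1, two-sided, with Benjamini-Hochberg adjustment over all probe sets tested. On simulated data it recovered 95 of 100 probe sets changed by 1.5 and 100 of 100 changed by 2.5, with 1 false call. The simulated noise was independent and equally wide in all stages, so it does not show the error rate for the uneven P2 arrays. Each gene was represented by its brightest probe set on average over the 26 arrays. Of the probe sets, 22436 name 1 gene, 95 several and 34663 none, and 2456 of 17905 genes had a symbol in the array's gene table or the RefSeq table of assembly ASM3414082v1. Figures were made with Python 3.11.15 and matplotlib 3.10.9.

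Named genes are the 15 largest rises and 15 largest falls with a symbol and no overlap, up to 4 called members of each list, and 3 rises and 3 falls without a symbol. Members named beyond that, called or not, were chosen after their values were seen. The comparison, members and gene lists were chosen with earlier results of these data known. The titles do not state that replicate numbers pair P2 with P1 arrays, so the main fit used no block. The alternatives were other pseudocounts, filters and scalings, array weights, the 6 arrays alone, a replicate block and leaving out arrays.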

Additional observations from a re-analysis of the deposited data

How the results depend on the processing

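The counts of 1544 higher and 1073 lower probe sets moved most with the pseudocount. They were 677 and 404 with a pseudocount of 4, and 2817 and 2432 with 0.149, the 20th percentile. Spike-in scaling, chosen after seeing the data, gave 1079 higher and 2024 lower, keeping 1049 of the 1544 and all 1073 of the lower probe sets. The spike-in probe sets averaged 3.92, 4.64 and 4.50 log2 units in P2 and 3.8, 4.08 and 3.88 in P1. Leaving out 1 array of P2 or P1 gave 1384 to 1800 higher and 972 to 1268 lower. Other filters, quantile or median scaling, no trend, array weights, the 6 arrays alone, leaving out the P3 array that stands apart, leaving out P1 array 3 and P2 array 1 together, or leaving out probe sets that can bind related transcripts gave 1230 to 1875 higher and 817 to 1399 lower. The settings without P1 array 3 and P2 array 1 together and without such probe sets were also chosen after seeing the data. With the replicate number as a block the counts were 1547 and 1070, and no named gene lost its call. Same-numbered P2 and P1 arrays did not deviate together (correlations -0.151 to -0.077). These deviations are from means of only 3 arrays, so they cannot decide whether the numbers pair the arrays.

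Of 143 named genes, 80 kept their call under all 20 alternatives in which they had a value, and none took the opposite sign. Calls were lost by 52 with a pseudocount of 4, by 20 with the 6 arrays alone, by 16 with spike-in scaling and by 3 to 17 without 1 array. The cause of these losses was not tested. Without probe sets that can bind related transcripts, 126 of the 143 had a value, and all 126 kept their call. With 3 arrays a stage and no detection calls, values near the array median limit what can be said of weak genes.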

Other observations

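Of 16 genes of phenylpropanoid and flavonoid synthesis tested, 5 fell, 1 rose and 10 were not called, against 4.46% of all genes tested falling and 6.06% rising. CHS, the chalcone synthase that opens the flavonoid pathway, had 6.65, 3.05 and 4.14 in P2, against 41.2, 32.4 and 16.6 in P1 (difference -2.43, SE 0.54, limma adjusted p = 0.00161). Of its 4 other probe sets, 1 was lower (-1.09) and 3 were not called (-0.11, -0.07 and -0.01). CAD, a cinnamyl alcohol dehydrogenase, had 7.99, 5.04 and 5.61 in P2, against 42.4, 34.0 and 19.8 in P1 (difference -2.15, adjusted p = 2.82e-07). PAL, the entry enzyme of the pathway, had 32.9, 7.63 and 11.5 in P2, against 39.4, 43.9 and 42.0 in P1 (difference -1.47, adjusted p = 0.00131), so P2 array 1 lay close to P1. Of its 4 other probe sets, 2 were lower (-1.21 and -1.53) and 2 were not called (-0.54 and -0.85). The riser CAD3 lost its call without P1 array 3 (0.90), P2 array 2 (0.88) or P2 array 3 (0.92). Nitrogen enzymes were split, since the cytosolic glutamine synthetase GLN1-3 had 1.54, 0.631 and 0.610 in P2, against 4.44, 6.26 and 16.9 in P1 (difference -2.24, adjusted p = 1.65e-06). Its relative GLN1-1 had 48.7, 39.8 and 32.3 in P2, against 12.8, 8.93 and 16.1 in P1 (difference 1.61, adjusted p = 1.53e-05).

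Of 39 homeobox factors, 3 fell (7.69%) and 1 rose (2.56%), near the 4.46% and 6.06% of all genes tested. Roc6 and Roc5, of a family known from the epidermis, had P2 values of 0.387 to 0.633 and 1.08 to 1.58, against 4.10 to 8.25 and 7.31 to 8.71 in P1 (differences -2.31 and -1.96, adjusted p = 1.22e-08 and 3.31e-11), and the other probe set of Roc6 was not called, at -0.22. Without P1 array 3, 6 homeobox factors were lower. NAC010 had 0.396, 2.08 and 1.70 in P2, against 11.9, 17.7 and 12.9 in P1 (difference -2.73, adjusted p = 6.35e-06), and its P3 mean was 6.22. C3H54, a zinc finger protein, had 9.98, 7.97 and 8.68 in P2, against 0.118, 0.209 and 1.38 in P1 (difference 2.74, adjusted p = 9.96e-08). Of 20 heat shock factors and 18 small heat shock proteins, limma called none, with 8 and 2 at an unadjusted p under 0.05. MEL1, an Argonaute of early germ cells, had 4.58, 2.43 and 2.89 in P2, against 0.638, 0.443 and 0.490 in P1 (difference 1.47, adjusted p = 1.64e-05), far below its mean of 45.8 before meiosis (An1). The other 3 meiocyte markers tested, PAIR2, DMC1 and PAIR1, were not called, at -0.73, -0.38 and 0.00.

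P1 array 3 held several genes at values between the other P1 arrays and P2. It had 8.15 for PHT1-7, 2.09 for the endoglucanase GLU12 and 13 for the ammonium transporter AMT1, against 0.378 and 1.61, 0.155 and 0.234, and 2.68 and 6.06 on P1 arrays 1 and 2. The other probe sets of GLU12 and AMT1 were not called, at 0.03 and 0.02. AMT1 rose by 1.19 and lost its call without P1 array 1 (0.71).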
